A study of Macaca mulatta with 11 samples.

Results

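Transcripts of the activin, inhibin, follistatin and anti-Müllerian hormone (AMH) system were examined in rhesus monkey cumulus cells, through every probe set that the array annotation assigns to INHBA, INHBB, FST, AMH or ACVR1 alone. These were 9 of 52766 probe sets, for 5 of 14132 named genes: 2 for INHBA, 2 for INHBB, 3 for FST, 1 for AMH and 1 for ACVR1. Cumulus cells are the granulosa-derived cells that enclose the oocyte. The 3 IVM arrays hold cells of cumulus-oocyte complexes that were matured in culture after follicle-stimulating hormone (FSH) had been given to the animals. For the 4 VVM arrays FSH was followed by human chorionic gonadotropin (hCG) and maturation took place in vivo, and the 4 PM arrays hold cells of immature complexes after FSH alone, so that all 3 groups share the FSH stimulation. The labels give no age, animal number, culture medium or time, and do not say whether complexes were pooled or whether the arrays of a group come from separate animals. P-values therefore measure the spread between these samples, which may be technical.

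Activins are dimers of the beta subunits encoded by INHBA and INHBB, and inhibins pair 1 of these subunits with the alpha subunit encoded by INHA. Both are products of granulosa cells, activin acting locally to favour FSH action and inhibin entering the blood to lower FSH release from the pituitary. Follistatin, the FST product, binds activin and keeps it from its receptors. AMH is a related ligand made by granulosa cells of growing follicles, with its own type 2 receptor, AMHR2, and it signals through type 1 receptors that include the ACVR1 product (ALK2), which also serves BMP ligands. Activin receptors signal through SMAD2 and SMAD3, and AMH and BMP receptors through SMAD1, SMAD5 and SMAD9, in both cases with SMAD4.

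Values are log2 of the robust multi-array average (RMA) signal, and array medians lay between 5.34 and 5.53. Every array correlated more closely with its own group than with the others. Of the granulosa and cumulus markers, 10 of 12 were measured, with a summed signal from 29038 to 34920 in IVM, from 24694 to 28258 in VVM and from 34596 to 39890 in PM. Among them INHA read from 13.05 to 14.01 on all arrays, while FOXL2 and FSHR were not measured here. Markers of other cells stood out on single arrays. The 8 of 11 measured oocyte markers summed to 2161 in PM 1, against 701 to 780 in the other PM arrays, 783 to 812 in IVM and 679 to 1134 in VVM. The mean of PTPRC, CD14, TYROBP and LYZ, which leukocytes express, was 7.48 in VVM 2 and 8.70 in VVM 3, against 5.41 in VVM 1, 5.36 in VVM 4, 4.50 to 4.70 in IVM and 4.23 to 4.56 in PM. The whole leukocyte list, 8 of 11 measured, summed to 465 to 700 in IVM, 417 to 2968 in VVM and 1219 to 1441 in PM. VVM 2, at 1301, lay inside the PM range on this sum. In VVM against PM 5 of the 8 rose and 2 fell (18.0% and 21.8% of all genes). CSF1R read 9.95 to 10.21 in PM against 6.49 to 8.75 in VVM. ITGAM read 5.88 to 6.68 in PM against 5.43 to 6.08 in VVM. The theca and stroma list (7 of 10) summed to 712 to 1515 in IVM, 557 to 1536 in VVM and 389 to 515 in PM. IVM 1 and VVM 1 were the highest of their groups on this list. Endothelial markers (6 of 6) summed to 389 to 421 in IVM, 366 to 1124 in VVM and 299 to 331 in PM, and red cell markers (2 of 6) to 171 to 212 in IVM, 391 to 1087 in VVM and 241 to 475 in PM. No marker had a value of 0, since RMA signals are always positive. In such bulk samples fewer cells of a type and less RNA per cell cannot be told apart.

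All 5 genes had a probe set that was lower in VVM than in PM, whereas in IVM only FST, AMH and ACVR1 passed the test against PM. The beta subunits INHBA and INHBB were higher in IVM than in VVM, by 2.46-fold and 3.12-fold on the probe sets that passed. Both of these calls ended with array weights (1.18 and 1.34, adjusted p = 0.0731 and 0.0928) and in the fit of IVM and VVM alone (1.30 and 1.64, adjusted p = 0.0543 and 0.0728). They also ended with the mean of PTPRC, CD14, TYROBP and LYZ, here the leukocyte covariate (1.51 and 2.09, adjusted p = 0.0969 and 0.0654). In VVM against PM that covariate ended the calls of INHBA probe set 2 (-1.60), ACVR1 (-1.31) and FST probe set 1 (-0.22). Their adjusted p were then 0.0862, 0.134 and 0.699. By limma at an adjusted p under 0.05, 6 of 9 probe sets fell and 0 rose in VVM against PM, where 14.5% of all probe sets fell and 16.7% rose. For IVM against PM, 5 of 9 fell and 0 rose, where 15.4% of all fell and 25.3% rose. For IVM against VVM, 2 of 9 rose and 0 fell, where 5.62% of all rose and 5.73% fell. At an unadjusted p under 0.05, 0 probe sets rose in either comparison with PM and 1, FST probe set 2, was lower in IVM than in VVM. The groups did not overlap for 5 of 9 in VVM against PM (34.6% of all probe sets), 3 of 9 in IVM against PM (45.6%) and 2 of 9 in IVM against VVM (22.2%). The median difference over the 9 was -1.51 in VVM against PM (0.10 over all probe sets), -0.89 in IVM against PM (0.17 over all) and 0.76 in IVM against VVM (0.08 over all). The comparisons with PM share the PM arrays. Centring each array on its median shifts every difference by -0.15 in IVM against PM, by -0.11 in VVM against PM and by -0.04 in IVM against VVM, and kept all 13 of these calls. With it 18.2% of all probe sets fell and 13.5% rose in IVM against PM (15.4% and 25.3% as deposited), and 17.1% fell and 10.4% rose in VVM against PM (14.5% and 16.7% as deposited).

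**Figure D1:**
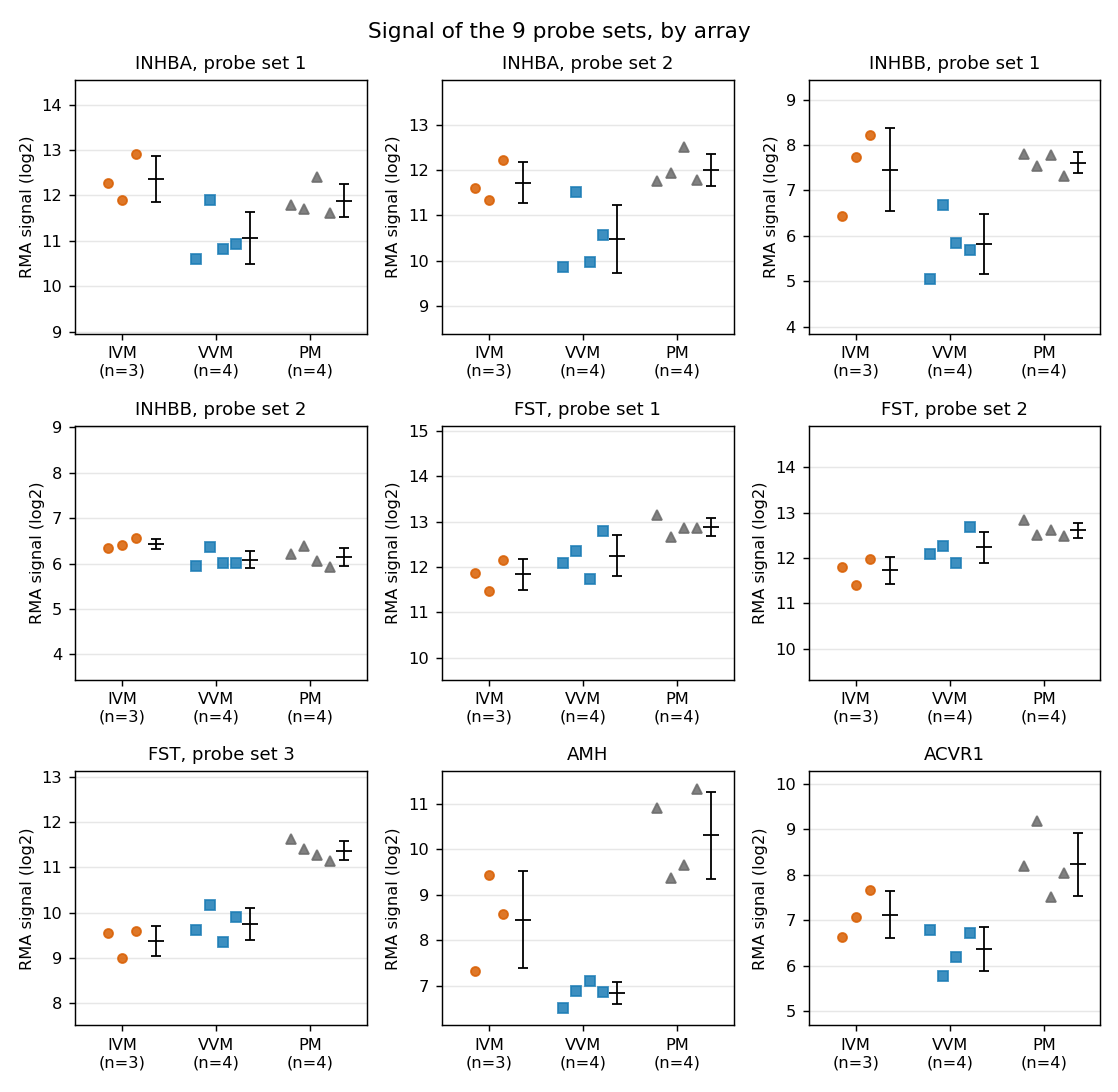
Each panel plots 1 probe set, with the log2 RMA signal of every array on the vertical axis and the groups IVM (circles, n = 3), VVM (squares, n = 4) and PM (triangles, n = 4) on the horizontal axis. Bars give the mean and SD, and every panel spans the same number of log2 units. FST probe set 3 is higher in all 4 PM arrays than in any other, AMH lies at 9.36 to 11.34 in PM with only IVM 2 (9.44) reaching that range, and INHBB probe set 2 stays between 5.93 and 6.55 on all arrays.

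INHBA encodes the beta A subunit. Its first probe set (MmuSTS.701.1.S1_at) read 12.26, 11.90 and 12.90 in IVM 1, 2 and 3, against 10.60, 11.90, 10.81 and 10.92 in VVM 1, 2, 3 and 4 and 11.79, 11.70, 12.41 and 11.62 in PM 1, 2, 3 and 4. Its second (MmugDNA.21962.1.S1_at) read 11.61, 11.34 and 12.22 in IVM, against 9.87, 11.51, 9.98 and 10.57 in VVM and 11.76, 11.93, 12.51 and 11.77 in PM. VVM 2 was the highest VVM array on both, level with IVM 2 to 2 decimals on the first, and the other VVM arrays lay below every IVM and PM array. The probe sets correlated at r = 0.898 over the 11 arrays, which form 3 groups and so are not independent points.

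On the first probe set INHBA averaged 12.36 ± 0.51 in IVM (SD, n = 3) and 11.06 ± 0.58 in VVM (SD, n = 4), so that the log2 difference was 1.30 ± 0.33 (SE, adjusted p = 0.0257). On the second the averages were 11.72 ± 0.45 in IVM (SD, n = 3) and 10.48 ± 0.75 in VVM (SD, n = 4), a difference of 1.24 ± 0.37 that did not pass (SE, adjusted p = 0.0519). The second passed against PM, where VVM was 2.85-fold lower (-1.51 ± 0.34 SE, adjusted p = 0.00638), and the first did not (-0.82 ± 0.30 SE, adjusted p = 0.0574). Which probe set is read therefore decides whether the INHBA call falls in the comparison with IVM or in that with PM, while both put VVM lowest. IVM and PM were not distinguished, with differences of 0.48 ± 0.33 (adjusted p = 0.258) and -0.27 ± 0.37 (adjusted p = 0.570), whose 95% intervals of -0.24 to 1.19 and -1.08 to 0.53 overlap. Leaving out IVM 1 (1.35), IVM 3 (1.03), VVM 1 (1.15), VVM 3 (1.22) or VVM 4 (1.25) ended the call of the first probe set in IVM against VVM, at adjusted p of up to 0.0789. Without VVM 2 the second probe set passed in IVM against VVM (1.58, adjusted p = 0.00765) and the first in VVM against PM (-1.11, adjusted p = 0.00903). The first also passed in VVM against PM without IVM 3 (-0.82, adjusted p = 0.0460).

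INHBB encodes the beta B subunit. Its first probe set read 6.43, 7.73 and 8.22 in IVM 1, 2 and 3, against 5.06, 6.68, 5.85 and 5.69 in VVM and 7.79, 7.54, 7.79 and 7.31 in PM. Again VVM 2 was the highest VVM array, and IVM 1, the lowest IVM array, lay below it. VVM 1 lay below its own array's median of 5.47. INHBB averaged 7.46 ± 0.93 in IVM (SD, n = 3) and 5.82 ± 0.67 in VVM (SD, n = 4), a difference of 1.64 ± 0.42 (SE, adjusted p = 0.0270). Against the PM average of 7.61 ± 0.23 (SD, n = 4), VVM was 3.46-fold lower (-1.79 ± 0.38 SE, adjusted p = 0.00493) with no overlap, while IVM differed by -0.15 ± 0.42 (adjusted p = 0.792). That last difference turned to 0.37 without IVM 1. Leaving out IVM 2 (1.51), IVM 3 (1.26), VVM 1 (1.39), VVM 3 (1.65) or VVM 4 (1.60) ended the IVM against VVM call, at adjusted p of up to 0.105.

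The second INHBB probe set comes from the same design cluster, and the A in its name is the array maker's mark for the opposite orientation. It read from 6.33 to 6.55 in IVM, from 5.96 to 6.37 in VVM and from 5.93 to 6.39 in PM. None of its differences passed: 0.35 ± 0.14 in IVM against VVM (adjusted p = 0.142), 0.28 ± 0.14 in IVM against PM (adjusted p = 0.129) and -0.06 ± 0.13 in VVM against PM (adjusted p = 0.739), the last turning to 0.015 without PM 2. The call of INHBB thus rests on its first probe set. The orientation of the second was not checked here, so it may not read the INHBB transcript.

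INHA encodes the alpha subunit that turns a beta subunit into inhibin. Between IVM and VVM it differed by less than any INHBA or INHBB probe set. It read 13.23, 13.05 and 13.55 in IVM, 13.50, 13.60, 13.48 and 13.38 in VVM and 13.78, 13.78, 14.01 and 13.80 in PM, so that every PM array was above every other. It fell in IVM against PM by 0.57 ± 0.13 (SE, adjusted p = 0.00630) and in VVM against PM by 0.35 ± 0.12 (SE, adjusted p = 0.0462). The VVM call was lost without any 1 of 9 arrays, all but IVM 2 and IVM 3, where it lay between -0.39 and -0.30 at adjusted p of up to 0.120. Between IVM and VVM the difference was -0.21 ± 0.13 (adjusted p = 0.336). INHA thus did not pass in the comparison in which both beta subunits rose, and the difference between their changes was not tested.

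**Figure D2:**
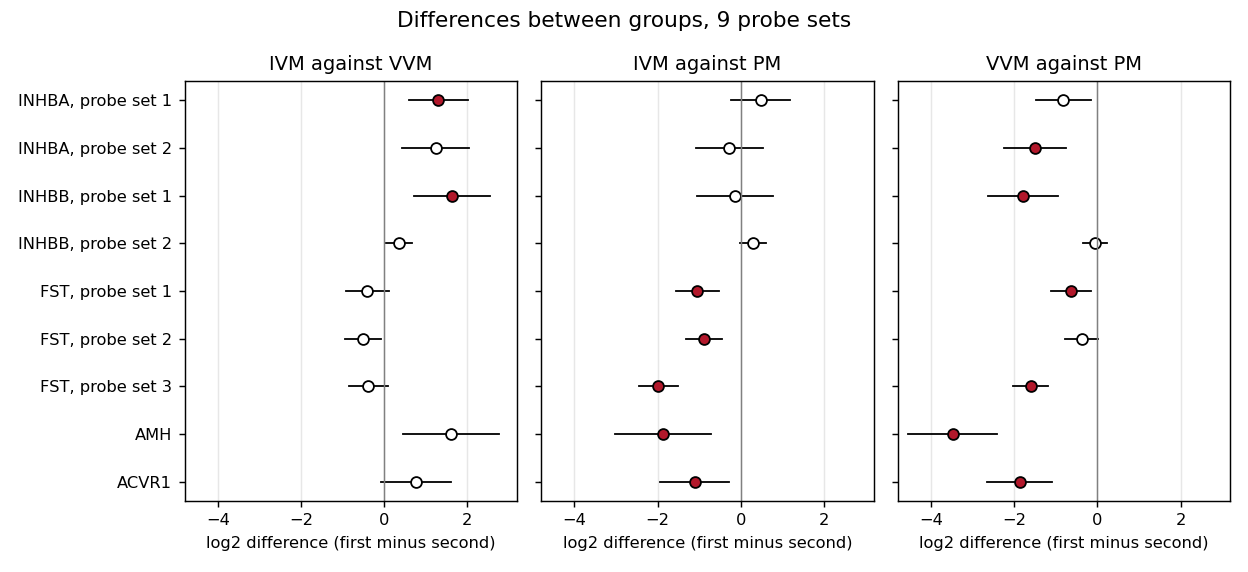
The log2 difference between group means is shown on the horizontal axis for the 9 probe sets, as the first named group minus the second, for IVM over VVM, IVM over PM and VVM over PM. Bars are 95% intervals of the limma fit, and filled points have an adjusted p under 0.05. The filled points lie right of 0 for INHBA and INHBB in IVM against VVM, and left of 0 for 5 probe sets in IVM against PM and 6 in VVM against PM.

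On group means FST, the activin-binding protein follistatin, was lower after both forms of maturation than before, though in VVM not every probe set passed. Its first probe set (MmugDNA.26912.1.S1_at) read 11.88, 11.48 and 12.16 in IVM, against 12.09, 12.36, 11.74 and 12.80 in VVM and 13.16, 12.66, 12.85 and 12.87 in PM. The second (MmugDNA.16891.1.S1_at) read 11.81, 11.39 and 11.98 in IVM, against 12.10, 12.27, 11.89 and 12.68 in VVM and 12.84, 12.51, 12.61 and 12.48 in PM. The third (MmugDNA.26915.1.S1_at) read 9.55, 9.0 and 9.59 in IVM, against 9.61, 10.18, 9.36 and 9.90 in VVM and 11.63, 11.41, 11.27 and 11.14 in PM. All IVM arrays lay below all PM arrays on each of them, while VVM 4 overlapped PM on the first and the second.

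All 3 FST probe sets fell in IVM against PM, by 1.04 ± 0.24 (SE, adjusted p = 0.00584), 0.89 ± 0.20 (SE, adjusted p = 0.00482) and 1.98 ± 0.21 (SE, adjusted p = 6.29e-05), the last a fold of 3.96. Of these, the first and second did not pass with the 3 prime to 5 prime control ratio as a covariate. They were then -0.91 and -0.85 (adjusted p = 0.0763 and 0.0518). In VVM against PM the third fell by 1.60 ± 0.20 (SE, adjusted p = 0.000153), a fold of 3.04, the single member call kept in all 24 alternative fits. The first fell by 0.64 ± 0.22 (SE, adjusted p = 0.0478), a call lost without any 1 of 8 arrays, all but IVM 2, IVM 3 and VVM 4, where it lay between -0.71 and -0.47 at adjusted p of up to 0.125. With the leukocyte covariate the first was -0.22 (adjusted p = 0.699). The second differed by -0.38 ± 0.18 (adjusted p = 0.135) and passed without VVM 4 (-0.53, adjusted p = 0.0352). Between IVM and VVM, none of the 3 passed, with differences of -0.41 ± 0.24, -0.51 ± 0.20 and -0.38 ± 0.21 (adjusted p = 0.309, 0.123 and 0.282) and 95% intervals that lay within -0.94 and 0.12.

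The FST probe sets did not move by the same amount. The signal of the first minus that of the third was 2.46 ± 0.12 in IVM (SD, n = 3) and 2.49 ± 0.31 in VVM (SD, n = 4), against 1.52 ± 0.20 (SD, n = 4) in PM. Only the change of this gap between groups can be read, since levels of different probe sets are not comparable. The lowest gap after maturation, 2.18 in VVM 2, was larger than the highest in PM, 1.72 in PM 4. With the second probe set in place of the first the gap was 2.34 ± 0.07 in IVM and 2.47 ± 0.29 in VVM, against 1.25 ± 0.12 in PM. The positions of these probes in the FST transcripts were not used here, and the gap was described without a test.

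Ligand subunit and binding protein were compared within each array, as the log2 signal of INHBA minus that of FST on their brightest probe sets. This difference was 0.39, 0.42 and 0.74 in IVM, against -1.49, -0.46, -0.93 and -1.88 in VVM and -1.36, -0.96, -0.44 and -1.25 in PM. All IVM arrays were above all VVM and PM arrays, while VVM and PM overlapped. The mean difference was 1.71 in IVM against VVM and 1.52 in IVM against PM, both with exact two-sided permutation p = 0.0571, the smallest that 3 against 4 arrays allow, and 0.0857 adjusted over the 6 tests. In VVM against PM the change was -0.19 (exact permutation p = 0.600), and its sign turned without VVM 4 (0.044). That sign also depends on the FST probe set. In VVM against PM FST probe set 3 fell by more (-1.60) than INHBA probe set 1 (-0.82), and FST probe set 1 by less (-0.64). INHBA minus FST probe set 3 was not tested. Neither comparison with IVM could have reached 0.05 by this test.

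For INHBB minus FST the values were -5.45, -3.75 and -3.94 in IVM, against -7.03, -5.68, -5.89 and -7.11 in VVM and -5.36, -5.12, -5.06 and -5.55 in PM. The mean difference was 2.05 in IVM against VVM (exact permutation p = 0.0571, adjusted 0.0857) and -1.15 in VVM against PM (exact permutation p = 0.0286, adjusted 0.0857), with no overlap in either case. IVM and PM overlapped through IVM 1, with a difference of 0.89 (exact permutation p = 0.229, adjusted 0.274) that was 1.43 without IVM 1 and 0.58 without IVM 2. The VVM against PM separation rests on FST probe set 1, which fell by less (-0.64) than INHBB probe set 1 (-1.79). FST probe set 3 fell nearly as much as INHBB (-1.60), and with it VVM and PM would overlap. INHBB minus FST probe set 3 was not tested. When the mean over each gene's probe sets was used, so that both INHBB probe sets counted equally, INHBB minus FST differed by -0.053 in VVM against PM (exact permutation, adjusted p = 0.886) and by 1.37 in IVM against PM (exact permutation, adjusted p = 0.0857). That mean includes the INHBB probe set marked for the opposite orientation, and so may not measure INHBB. It also includes all 3 FST probe sets.

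**Figure D3:**
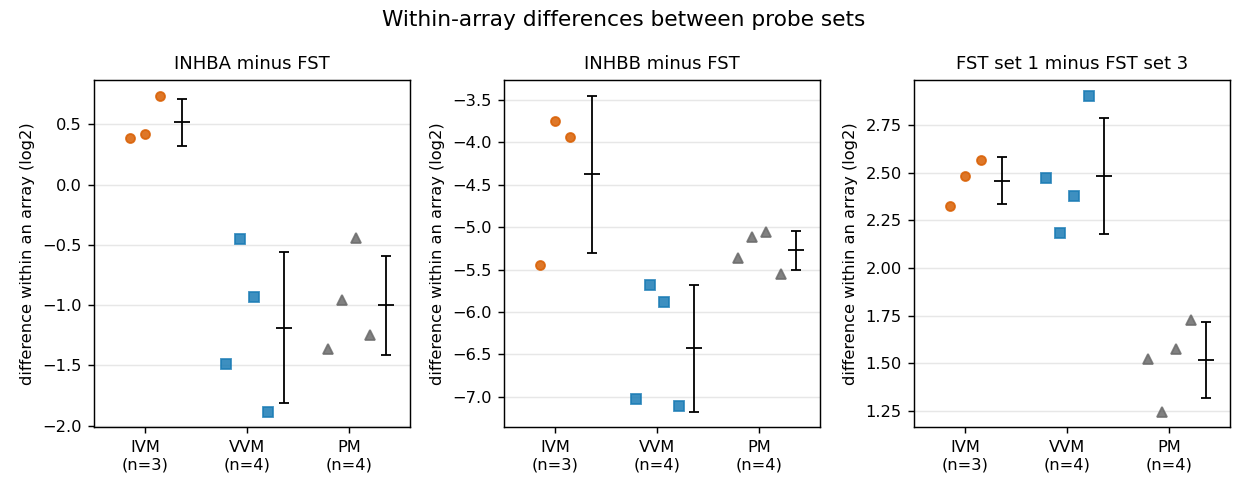
The vertical axis gives, for each array, the log2 signal of 1 probe set minus that of another, for INHBA minus FST, INHBB minus FST and FST probe set 1 minus probe set 3, with groups IVM (n = 3), VVM (n = 4) and PM (n = 4) on the horizontal axis. Bars give the mean and SD, and a value of 0 has no meaning of its own because probe sets differ in brightness. INHBA minus FST is higher in all IVM arrays (0.39 to 0.74) than in any VVM or PM array, and the FST gap is smaller in all PM arrays (at most 1.72) than in any other.

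AMH had the largest difference of the 9 probe sets in VVM against PM. Its probe set (MmuSTS.1953.1.S1_at) read 7.32, 9.44 and 8.58 in IVM 1, 2 and 3, against 6.51, 6.88, 7.11 and 6.85 in VVM and 10.91, 9.36, 9.65 and 11.34 in PM. The VVM arrays lay close together and below all others, the IVM arrays lay between, and IVM 2 reached above PM 2. AMH averaged 6.84 ± 0.25 in VVM (SD, n = 4) and 10.32 ± 0.96 in PM (SD, n = 4), an 11.2-fold lower signal in VVM (-3.48 ± 0.49 SE, adjusted p = 0.000358), and the difference stayed between -3.80 and -3.14 without any 1 array. In IVM the average was 8.45 ± 1.07 (SD, n = 3), 3.65-fold below PM (-1.87 ± 0.53 SE, adjusted p = 0.0160), a call lost without IVM 1 (-1.30, adjusted p = 0.0730). IVM and VVM differed by 1.61 ± 0.53, which did not pass (adjusted p = 0.0734) although the groups did not overlap, as 22.2% of all probe sets do not in this comparison, and which passed without IVM 1 (2.18, adjusted p = 0.0241).

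IVM 1 was thus the IVM array with the least AMH and the least INHBB. Its theca and stroma markers summed to 1515, against 784 in IVM 2 and 712 in IVM 3. VVM 1, the VVM array lowest for INHBA, INHBB and AMH, summed to 1536, against 557 to 859 in the other VVM arrays. Whether these markers bear on the members was not tested. IVM 1 also had the highest ratio of 3 prime to 5 prime control signal of all arrays, 3.63 on the log2 scale, against 3.01 in IVM 2 and 2.87 in IVM 3. With this ratio as a covariate AMH passed in IVM against VVM (1.96, adjusted p = 0.0280) and no longer in IVM against PM (-0.97, adjusted p = 0.269). The high PM values of AMH lay in PM 1 and PM 4, and of these PM 1 had raised oocyte markers. Whether oocyte content bears on the AMH signal was not tested.

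AMHR2, the type 2 receptor of AMH, did not follow its ligand across all groups. It read from 7.43 to 7.54 in IVM, against 6.49, 6.88, 6.87 and 6.59 in VVM and 6.90, 7.19, 7.33 and 7.60 in PM. It rose in IVM against VVM by 0.78 ± 0.16 (SE, adjusted p = 0.0111) with no overlap, and fell in VVM against PM by 0.55 ± 0.15 (SE, adjusted p = 0.0183), a call lost without VVM 1 (-0.48) or PM 4 (-0.43). In IVM against PM, where AMH fell, AMHR2 differed by 0.24 ± 0.16 (adjusted p = 0.266), and it passed after quantile normalization (0.45, adjusted p = 0.0465).

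ACVR1, a type 1 receptor of AMH and BMP ligands, was lower after maturation. Its probe set (MmuSTS.3781.1.S1_at) read 6.62, 7.08 and 7.66 in IVM, against 6.78, 5.78, 6.18 and 6.72 in VVM and 8.19, 9.18, 7.52 and 8.04 in PM. All VVM arrays lay below all PM arrays, while IVM 3 lay above PM 3. It fell 3.65-fold in VVM against PM (-1.87 ± 0.35 SE, adjusted p = 0.00233) and 2.16-fold in IVM against PM (-1.11 ± 0.38 SE, adjusted p = 0.0375). Leaving out IVM 1 (-0.86), IVM 2 (-1.09), PM 1 (-1.12), PM 2 (-0.79) or PM 4 (-1.17) ended the IVM against PM call, at adjusted p of up to 0.145. IVM and VVM differed by 0.76 ± 0.38, with a 95% interval of -0.08 to 1.60 (adjusted p = 0.232).

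The order of the group means was PM, IVM, VVM for AMH, ACVR1, INHBB probe set 1 and INHBA probe set 2, and PM, VVM, IVM for FST. It was IVM, PM, VVM for INHBA probe set 1 and INHBB probe set 2. For AMH, IVM passed the test against PM and not against VVM, and without IVM 1 it passed against VVM (2.18, adjusted p = 0.0241) and not against PM (-1.30, adjusted p = 0.0730). IVM and PM did not pass against each other for INHBB and INHBA, nor did IVM and VVM for FST, where the 95% interval of probe set 2 nevertheless lay below 0 (-0.94 to -0.08). Over the 11 arrays AMH correlated with the first INHBB probe set at r = 0.774 and with the second at r = 0.042. Between INHBA and FST the values ran from -0.096 to 0.549, depending on the probe sets. These values describe arrays that share 3 groups and carry no test.

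PM 1 had raised oocyte markers, and VVM 2 and VVM 3 had the highest mean of PTPRC, CD14, TYROBP and LYZ. Leaving out PM 1, VVM 2 and VVM 3 kept 9 of the 13 member calls. INHBA and INHBB in IVM against VVM were then 1.60 and 2.09 on their first probe sets (adjusted p = 0.0277 and 0.0364), AMH in VVM against PM was -3.44 (adjusted p = 0.0124) and the third FST probe set -1.52 (adjusted p = 0.00289). The calls lost were AMH (-1.67) and ACVR1 (-1.12) in IVM against PM (adjusted p = 0.0731 and 0.0728), and ACVR1 (-1.49, adjusted p = 0.0648) and FST probe set 1 (-0.35, adjusted p = 0.424) in VVM against PM. The bacterial hybridization controls, which are spiked in ahead of hybridization, had a mean signal of 11.92 ± 0.40 (SD, n = 3) in IVM, 11.04 ± 0.43 in VVM (SD, n = 4) and 10.09 ± 0.21 in PM (SD, n = 4), with no overlap between the groups. With their level as a covariate only FST probe set 3 in VVM against PM stayed called (-1.55, adjusted p = 0.0250). Several lost calls kept most of their size: INHBA probe set 1 (1.17) and INHBB probe set 1 (1.52) in IVM against VVM, INHBA probe set 2 (-1.81), INHBB probe set 1 (-1.92) and AMH (-3.06, adjusted p = 0.0552) in VVM against PM, and FST probe set 3 in IVM against PM (-1.88). Smaller were AMH (-1.06) and FST probe sets 1 and 2 (-0.62 and -0.66) in IVM against PM and ACVR1 (-1.18) and FST probe set 1 (-0.42) in VVM against PM, and the sign of ACVR1 in IVM against PM turned (0.21, adjusted p = 0.956). Because this level does not overlap between the groups, it and the group cannot be told apart.

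The other genes of the pathway comprised 58 names, of which 45 were measured. In IVM against VVM 8 rose and 2 fell, in IVM against PM 12 rose and 9 fell, and in VVM against PM 8 rose and 12 fell. Of all genes, 9.06% rose and 7.63% fell in IVM against VVM, 25.0% and 20.9% in IVM against PM, and 18.0% and 21.8% in VVM against PM. In the comparisons with PM the shares of the 45 lay near these, whereas in IVM against VVM a larger share rose than over all genes. The lists were chosen with earlier results of these data known, and the larger share was not tested. The median difference of the 45 was 0.025 in IVM against VVM (0.08 over all genes), -0.0026 in IVM against PM (0.12 over all) and -0.24 in VVM against PM (0.04 over all).

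Among 9 other ligands measured, INHA included, 0 passed in IVM against VVM by limma, and 1 had an unadjusted p under 0.05. TGFB1 rose in IVM against PM by 1.06 ± 0.14 and in VVM against PM by 1.03 ± 0.13, and BMP7, represented by the brightest of 5 probe sets, by 0.89 ± 0.13 and 0.79 ± 0.12 (SE). TGFB3 fell by 0.87 ± 0.21 in VVM against PM, a call that ended without PM 1, VVM 2 and VVM 3 (-0.93, adjusted p = 0.0640). Together with INHA these were the only ligands of that list to pass in either comparison with PM. Of 10 other receptors, TGFBR2, the type 2 receptor of TGF-beta, rose in VVM against PM by 0.84 ± 0.15 (SE, adjusted p = 0.00154) and in IVM against PM by 0.60 ± 0.16 (SE, adjusted p = 0.0126), the IVM call ending with each array centred on its median (0.45, adjusted p = 0.0636). The activin type 2 receptor ACVR2A fell in IVM against PM by 0.67 ± 0.20 (SE, adjusted p = 0.0203), a call lost without IVM 1 (-0.55), IVM 2 (-0.58) or PM 1 (-0.56). ACVR1B, the type 1 receptor of activin, read 6.92 ± 0.10 (SD, n = 3) in IVM, 6.92 ± 0.40 (SD, n = 4) in VVM and 7.27 ± 0.37 (SD, n = 4) in PM and passed in no comparison. TGFBR3, also called betaglycan, a co-receptor that lets inhibin oppose activin, read 11.80, 10.87 and 11.39 in IVM, against 11.77 to 12.35 in VVM and 10.11, 9.43, 11.87 and 10.56 in PM. It rose in VVM against PM by 1.54 ± 0.42 (SE, adjusted p = 0.0163), with PM 3 inside the VVM range, and the call ended without PM 1, VVM 2 and VVM 3 (1.57, adjusted p = 0.122).

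Carriers and inhibitors among the SMAD relays went opposite ways in IVM against PM. All 4 measured signal carriers fell in IVM against PM, with differences of -1.39 ± 0.19 for SMAD2, -1.11 ± 0.22 for SMAD3, -2.43 ± 0.31 for SMAD4 and -1.68 ± 0.26 for SMAD5 (SE, adjusted p from 0.000179 to 0.00241). The fall in VVM against PM was -1.07 ± 0.17 for SMAD2, -1.11 ± 0.28 for SMAD4 and -1.14 ± 0.24 for SMAD5 (SE), and SMAD3 did not pass there (-0.52 ± 0.20, adjusted p = 0.0692). Without PM 1, VVM 2 and VVM 3 the calls of SMAD4 (-0.78, adjusted p = 0.226) and SMAD5 (-0.83, adjusted p = 0.118) in VVM against PM ended, as they did with the leukocyte covariate (-0.68 and -0.86). SMAD4, which both branches share, read 5.07, 5.11 and 6.27 in IVM, against 6.49 to 7.36 in VVM and 7.44 to 8.19 in PM. Its IVM 1 and IVM 2 values lay below those arrays' medians of 5.53. SMAD4 fell also in IVM against VVM, by 1.32 ± 0.31 (SE, adjusted p = 0.0182), a call lost without IVM 1 (-1.12) or IVM 2 (-1.14), and 1 of its 2 probe sets passed there. SMAD6 and SMAD7, which inhibit these signals, rose in IVM against VVM (2.84 ± 0.54 and 3.86 ± 0.34, SE) and against PM (3.49 ± 0.54 and 3.51 ± 0.34, SE). The SMAD6 and SMAD4 calls in IVM against VVM ended without PM 1, VVM 2 and VVM 3 (2.62, adjusted p = 0.0559, and -1.56, adjusted p = 0.0514). SMAD6 did not pass there with the leukocyte covariate either (2.82, adjusted p = 0.0693).

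Among 12 binding and processing proteins measured, FSTL3 and PMEPA1 rose in IVM against VVM and PCSK5 fell. FSTL3, a second activin-binding protein of the follistatin family, read 11.83, 11.51 and 11.69 in IVM, against 10.18, 9.98, 10.06 and 10.37 in VVM and 9.40, 10.31, 9.50 and 8.85 in PM. All IVM arrays lay above all others, with a rise of 1.53 ± 0.27 against VVM (SE, adjusted p = 0.00439) and of 2.16 ± 0.27 against PM (SE, adjusted p = 0.000151). FST and FSTL3 thus went opposite ways in IVM against PM. Its difference in VVM against PM, 0.63 ± 0.25 (adjusted p = 0.0727), passed without PM 2 (0.89). With PM 1, VVM 2 and VVM 3 left out it no longer passed in IVM against VVM (1.40, adjusted p = 0.0573). Nor did FSTL3 pass there with the leukocyte covariate (1.34, adjusted p = 0.0719). Apart from PMEPA1 and PCSK5, the other calls of this list (limma) were against PM. SMURF2 fell in IVM (-1.49, adjusted p = 9.57e-05) and VVM (-1.03, adjusted p = 0.000624). ZFYVE9 rose in IVM (1.41, adjusted p = 0.000109) and VVM (0.98, adjusted p = 0.000672). FSTL1 rose in both (0.61 and 0.48, adjusted p = 0.0130 and 0.0333), and BAMBI fell in VVM (-1.24, adjusted p = 0.0283). The VVM calls of FSTL1 and BAMBI were each lost in 5 leave-one-out fits. With each array centred on its median both FSTL1 calls ended (0.46 and 0.37, adjusted p = 0.0556 and 0.100). The IVM call of FSTL1 also ended without IVM 1 (0.51, adjusted p = 0.0566). It ended with the 3 prime to 5 prime covariate as well (0.64, adjusted p = 0.0721).

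PMEPA1, a gene induced by TGF-beta and activin signalling whose product dampens it, read 9.06, 8.59 and 9.25 in IVM, against 7.90, 6.75, 6.46 and 7.09 in VVM and 8.75, 10.38, 8.82 and 8.76 in PM. All VVM arrays lay below all others. It rose in IVM against VVM by 1.92 ± 0.42 (SE, adjusted p = 0.0143) and fell in VVM against PM by 2.13 ± 0.39 (SE, adjusted p = 0.00197), on all 4 of its probe sets in both. Without PM 1, VVM 2 and VVM 3 it no longer passed in IVM against VVM (1.48, adjusted p = 0.126). With the leukocyte covariate it passed neither there (1.21, adjusted p = 0.242) nor in VVM against PM (-1.35, adjusted p = 0.138). IVM and PM differed by -0.21 ± 0.42 (adjusted p = 0.708), a sign that turned without PM 2 (0.19). VVM was the lowest group for PMEPA1 and the beta subunits, as it was for AMH, ACVR1 and GATA4. Within VVM the arrays differed in order, with VVM 1 highest for PMEPA1 and VVM 2 highest for INHBA. A link between PMEPA1 and the beta subunits was not tested.

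PCSK5, a protease of the proprotein convertase family that cleaves ligand precursors including that of AMH, moved the other way. It read 8.86, 8.34 and 8.27 in IVM, against 11.01, 9.92, 11.13 and 10.89 in VVM and 6.29, 6.27, 5.66 and 7.49 in PM, with no overlap between any groups. It rose in VVM against PM by 4.31 ± 0.37 (SE, adjusted p = 1.96e-05) and in IVM against PM by 2.07 ± 0.40 (SE, adjusted p = 0.00221), and fell in IVM against VVM (-2.25 ± 0.40 SE, adjusted p = 0.00473), each on 1 of its 2 probe sets. FURIN, another convertase, read 8.51 ± 0.25 (SD, n = 3) in IVM, 8.33 ± 0.18 (SD, n = 4) in VVM and 8.17 ± 0.16 (SD, n = 4) in PM and passed in no comparison.

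Among 8 granulosa factors measured, GATA4, a transcription factor that binds the promoters of AMH and inhibin genes, had the order of AMH. ACVR1, INHBB probe set 1 and INHBA probe set 2 shared that order of group means. GATA4 read 8.88, 9.13 and 9.75 in IVM, against 7.59, 7.97, 8.13 and 8.08 in VVM and 10.76, 11.32, 10.73 and 10.71 in PM, again without overlap. It fell in VVM against PM by 2.94 ± 0.21 (SE, adjusted p = 8.28e-06) and in IVM against PM by 1.62 ± 0.23 (SE, adjusted p = 0.000323), and rose in IVM against VVM by 1.31 ± 0.23 (SE, adjusted p = 0.00421). NR5A1, also known to act on the AMH promoter, rose in IVM against PM by 0.99 ± 0.17 (SE, adjusted p = 0.00112), where AMH fell. It rose in IVM against VVM by 0.66 ± 0.17 (SE, adjusted p = 0.0289), a call that ended when IVM 2 (0.63), IVM 3 (0.61), VVM 1 (0.58), VVM 3 (0.65) or VVM 4 (0.67) was left out. SOX9, a further AMH activator known from the testis, rose by 0.49 ± 0.13 in IVM against PM (SE, adjusted p = 0.0111), a call lost with each array centred on its median (0.35, adjusted p = 0.0602). GATA6, a factor related to GATA4, rose in IVM against PM by 0.72 ± 0.15 and in VVM against PM by 0.94 ± 0.14 (SE), where GATA4 and AMH fell. NR5A2, a receptor related to NR5A1, fell by 1.31 ± 0.32 in IVM against PM (SE, adjusted p = 0.00829) and in VVM against PM (-0.97 ± 0.30 SE, adjusted p = 0.0284), the VVM call ending without VVM 1 (-0.79), VVM 3 (-0.999), VVM 4 (-0.97), PM 1 (-0.82), PM 3 (-0.91) or PM 4 (-1.004). CYP19A1, the aromatase that makes estrogens, rose in IVM against VVM (1.91 ± 0.41 SE, adjusted p = 0.0122) and fell in VVM against PM (-1.96 ± 0.38 SE, adjusted p = 0.00264). Its IVM against VVM call ended with the leukocyte covariate (2.21, adjusted p = 0.0552). WT1 and NR0B1 passed in no comparison. Whether any of these factors bears on AMH or the other members was not tested.

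**Figure D4:**
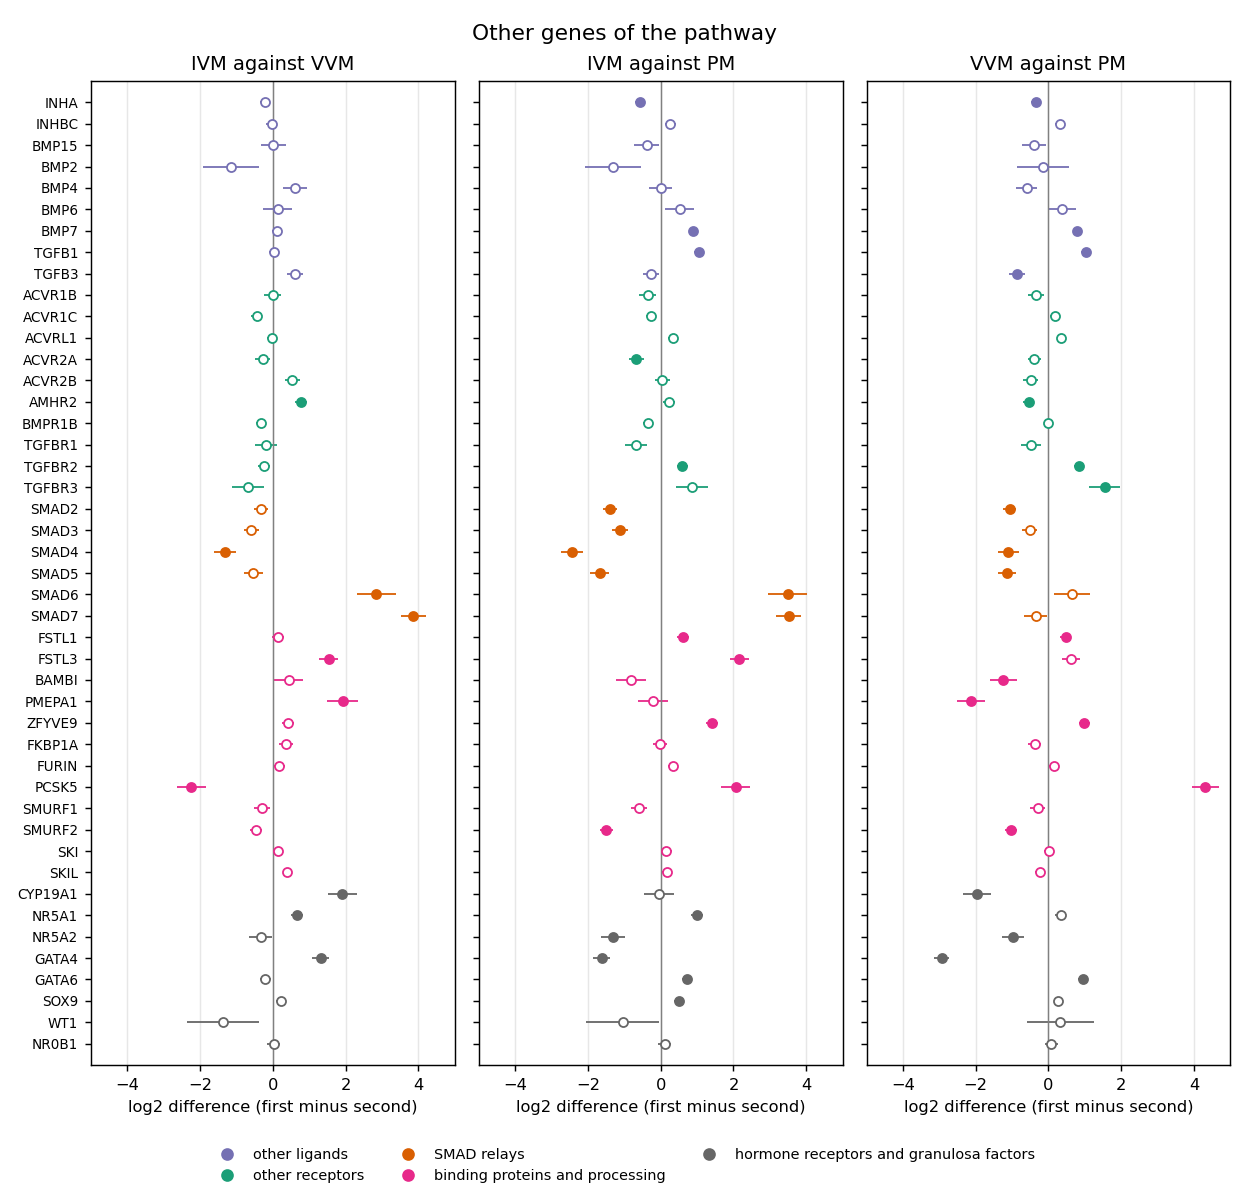
Log2 differences are plotted for the 45 measured genes of the pathway, 1 row per gene, as the first named group minus the second, for IVM over VVM, IVM over PM and VVM over PM. Bars are 1 SE of the limma fit, filled points have an adjusted p under 0.05, and colours give the gene group. The carriers SMAD2, SMAD3, SMAD4 and SMAD5 lie left of 0 in IVM against PM, and PCSK5 has a positive difference of 4.31 in VVM against PM.

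The genes whose pattern over the 11 arrays was most like that of each member were ranked by Pearson r among 12860 other named genes, by their brightest probe sets. For AMH they were PLCB3 (r = 0.981), CCNE1 (0.980) and TRAIP (0.971), and for ACVR1 they were KIF9 (0.968), ZNF26 (0.957) and RAE1 (0.948). For INHBA they were TMC6 (r = 0.948), ACLY (0.932) and EIF3B (0.921), and for INHBB they were ANXA6 (0.954), SLC4A3 (0.954) and MDFI (0.954). For FST they were RIMOC1 (r = 0.955), CYP2A23 (0.950) and KDM1A (0.948). No member was among the 3 genes most like another member.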

How the data were processed

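RNA of 11 cumulus cell samples was measured on Affymetrix Rhesus Macaque arrays after amplification of 50 ng of total RNA, per the labels' protocols. The deposited intensity values were made by the authors with RMA in Affymetrix Expression Console, per the submitters' processing notes; versions, settings and genome build are not given in the sources used here. The table was on a linear scale, so log2 was taken, with no pseudocount. After 99 control probe sets were left out, 52766 were fitted with limma 3.58.1 in R 4.3.3 as 1 model of 3 group means (8 residual and 3.30 prior degrees of freedom), two-sided, with Benjamini-Hochberg adjustment over all probe sets and calls at an adjusted p under 0.05. Gene symbols came from the GEO platform annotation: 24956 probe sets had 1 symbol, 361 several and 27449 none. A gene outside the 5 members was read by its brightest probe set with 1 symbol. The number of arrays limits the precision, and no detection calls were used. The test was tested on simulated data.

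Named genes were the members, the measured genes of 5 pathway lists and the 3 genes most like each member. Members, lists and alternatives were chosen with earlier results of these data known, except that the leukocyte covariate was listed after the files were seen. Same-numbered arrays had residual correlations from -0.107 to 0.101, so the numbers were not used. No sequences were used here.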

Additional observations from a re-analysis of the deposited data

Results flagged for a closer look

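The second INHBB probe set stood at 6.37 in VVM 2, against 5.96 to 6.02 in the other VVM arrays, a gap of 0.852 of the group's range, above the critical value of 0.829 for 4 samples. VVM 2 was also the highest VVM array on the other INHBB probe set and on both INHBA probe sets, where its gap stayed under that value. Chance flags about 1 in 20 groups, and 18 groups were checked.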

How the results depend on the processing

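Of the 13 member calls, 1 was kept in all 24 alternatives. All 13 were kept under median centring, without dim or cross-hybridizing probe sets and with a robust prior. Called member probe sets in IVM against VVM numbered 2, and 0 with array weights, in the fit of the 2 groups alone, with the hybridization covariate or with the leukocyte covariate. In IVM against PM they numbered 5, and 0 with the hybridization covariate, 1 with the 3 prime to 5 prime covariate and 3 without PM 1, VVM 2 and VVM 3. In VVM against PM they numbered 6, and 1 with the hybridization covariate and 3 with the leukocyte covariate. The labels do not say that the replicate numbers pair arrays, and with the replicate number as a block 1, 3 and 5 were called in these comparisons. Without 1 array they ranged from 0 to 3, from 3 to 5 and from 5 to 7. Called pathway genes numbered 10, 21 and 20; with the hybridization covariate 1, 0 and 9; without PM 1, VVM 2 and VVM 3, 5 in IVM against VVM and 13 in VVM against PM; with the leukocyte covariate 5 and 12 there; with the 3 prime to 5 prime covariate 12 in VVM against PM; at 2-fold or more 13 in IVM against PM and 11 in VVM against PM. Without 1 array they ranged from 9 to 11, from 20 to 22 and from 15 to 21. Signs turned in IVM against PM for INHBB probe set 1 (0.060 after quantile normalization, 0.34 with the 3 prime to 5 prime covariate, and over leave-one-out from -0.53 to 0.37), PMEPA1 (0.11 after quantile normalization, 1.02 with the hybridization covariate, and over leave-one-out from -0.35 to 0.19), AMHR2 (-0.10) and ACVR1 (0.21), the last pair with the hybridization covariate. In VVM against PM they turned over leave-one-out for INHBB probe set 2 (from -0.16 to 0.015) and INHBA minus FST (from -0.43 to 0.044). The cause was not tested, except that fits with fewer arrays or an added term have fewer degrees of freedom. The number of arrays limits what could be called, and signal over background was not estimated here.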
